A study of Mus musculus with 12 samples.

Results

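White fat cells are defined by a small set of transcripts, and 8 of these were followed through whole gastrocnemius muscle, the main calf muscle, which is made mostly of muscle fibres. The genes were Adipoq, Lep, Retn, Cfd, Plin1, Cidec, Fabp4 and Car3. They were found by matching the Ensembl identifiers of the deposited count table to gene symbols, and each was present once, so that 8 of 43432 identifiers are described. RNA was sequenced from male mice in 4 groups of 3 libraries. The exercised MKO mice had cellular Feimin knocked out (cFeimin MKO) and were sampled after a run of 90 min, at a pace set to 60% of maximal speed. The exercised WT mice carried the floxed gene on both alleles (fl/fl), left intact, and had made the same run. The sedentary MKO and sedentary WT mice had the same 2 genotypes and did not run. All groups share the male sex and the tissue. No source used here gives the promoter that drives the Cre recombinase, the age of the mice or the time between run and sampling.

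Adipocytes store triglyceride in a large lipid droplet, coat it with proteins that regulate its breakdown and growth, and secrete hormones that act on other organs. In muscle, adipocytes lie between the fibres and in the fat pads along the tissue, and they are separate from the fibro-adipogenic progenitors from which they can arise. Not all of these genes are equally restricted to fat. Adipoq, Lep, Retn, Plin1 and Cidec are known mainly from adipocytes, Cfd is abundant in them, Fabp4 is also made by the endothelium of capillaries and by macrophages, and Car3 is also a major protein of muscle fibres. In bulk RNA, fewer cells of a type and less RNA per cell cannot be told apart.

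The count totals were 14324010 to 14563501 per library, and 14486 genes had enough counts to be fitted. Levels below are counts scaled to library size and composition (normalised CPM), and 3 counts were worth 0.181 to 0.222 CPM. The targeted gene, taken to be B230219D22Rik from general knowledge, had 49 to 67 counts in exercised MKO and 293 to 405 in exercised WT libraries, and 60 to 92 in sedentary MKO and 316 to 360 in sedentary WT libraries. The tissue label fitted its defining genes, since 8 fibre genes (Acta1, Ckm, Mb, Des, Ttn, Neb, Myot and Ldb3) summed to 61348 to 79410 CPM in every library. Earlier results of these data had set apart exercised MKO replicate 4, exercised WT replicate 5 and sedentary MKO replicate 3, and values without them are given where they change a call. The labels do not say whether mice shared a litter or a day, so each p-value reflects the spread among these mice alone, which may be partly technical.

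The proximal promoters are shown first for members whose levels moved together from library to library (Adipoq, Cidec and Cfd, below) and for those with a match to the core that CCAAT/enhancer-binding proteins (C/EBP, factors of adipocyte differentiation) recognise. RefSeq windows on GRCm38.p6 were found for 6 of the 8 members, 7 windows in all, because Cidec had a pair of starts; those of Fabp4 and Car3 are not analysed here. The searches covered both strands of windows that held 250 bases before and 50 bases after each start. Only bases before the start are printed. The motifs were 3 short ones spelled here, the C/EBP core TTGCNNAA, the CCAAT box (CCAAT) and the TATA box (TATAAA). Also searched were the nuclear receptor motif AGGTCA and its direct repeat 1 base apart, the layout bound by PPARG with RXR. Each sequence is written 5′ to 3′ on the gene's own strand, and capitals mark a match to the CCAAT box on either strand (Adipoq) or to the C/EBP core (Plin1, Cidec and Lep).
Adipoq promoter, chr16:23146286-23146535, plus strand: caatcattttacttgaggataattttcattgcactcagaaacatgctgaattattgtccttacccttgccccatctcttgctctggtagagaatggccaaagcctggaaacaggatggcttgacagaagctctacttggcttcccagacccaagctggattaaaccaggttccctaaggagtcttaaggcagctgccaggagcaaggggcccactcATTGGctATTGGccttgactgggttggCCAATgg
Cidec promoter of the downstream start, chr6:113434765-113435014, minus strand: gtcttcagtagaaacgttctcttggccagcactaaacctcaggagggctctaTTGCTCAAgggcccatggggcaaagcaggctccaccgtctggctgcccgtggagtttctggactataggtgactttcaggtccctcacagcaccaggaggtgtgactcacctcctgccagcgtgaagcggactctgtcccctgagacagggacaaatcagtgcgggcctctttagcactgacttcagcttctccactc
Cfd promoter, chr10:79890603-79890852, plus strand: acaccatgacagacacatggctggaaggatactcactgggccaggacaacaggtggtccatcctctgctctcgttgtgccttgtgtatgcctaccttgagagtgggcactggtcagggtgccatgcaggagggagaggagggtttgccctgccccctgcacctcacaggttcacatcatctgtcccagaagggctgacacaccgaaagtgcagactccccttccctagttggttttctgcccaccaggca
Plin1 promoter, chr7:79732904-79733026, minus strand: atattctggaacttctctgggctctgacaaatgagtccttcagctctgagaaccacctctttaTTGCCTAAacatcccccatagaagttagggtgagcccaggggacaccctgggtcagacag
Lep promoter, chr6:29059971-29060219, plus strand: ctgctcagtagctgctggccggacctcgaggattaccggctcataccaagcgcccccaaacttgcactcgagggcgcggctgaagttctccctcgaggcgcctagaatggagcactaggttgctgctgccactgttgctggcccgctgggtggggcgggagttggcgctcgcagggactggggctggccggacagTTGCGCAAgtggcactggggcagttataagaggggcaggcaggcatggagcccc
Adipoq held 3 CCAAT boxes that began 34, 27 and 7 bases before its start, 2 of them on the opposite strand. The C/EBP core began 198 bases before the downstream Cidec start, 55 bases before the Lep start, where the letters read the same on both strands, and 187 bases before the Plin1 start. A second core of Plin1, 58 bases before the start, lay within annotated exon bases, which are not printed. The windows of Cfd, Retn and the upstream Cidec start held none of the 5 motifs. Among 32851 promoter windows of the same length, 10.8% held the C/EBP core, 37.4% a CCAAT box, 13.6% a TATA box, 16.3% AGGTCA and 0.04% the direct repeat. These matches describe letters and do not show that a factor binds there.

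The secreted products were read first. Adipoq (ENSMUSG00000022878, chr16:23146536-23158028), which encodes the hormone adiponectin, had 16, 28 and 2 counts in the exercised MKO libraries (replicates 1, 2 and 4), 10, 16 and 38 in the exercised WT libraries (replicates 3, 4 and 5), 40, 12 and 26 in the sedentary MKO libraries (replicates 1, 2 and 3) and 14, 20 and 50 in the sedentary WT libraries (replicates 1, 3 and 4). It averaged 1.10 ± 0.965 CPM in exercised MKO, 1.56 ± 1.10 in exercised WT, 1.68 ± 0.936 in sedentary MKO and 1.91 ± 1.33 in sedentary WT muscle (SD, n = 3 each). Within each group the highest library stood well above the lowest, and all 4 groups overlapped. Over the 12 libraries the counts ran between 2 and 50.

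Cfd (ENSMUSG00000061780, chr10:79890853-79892655) encodes complement factor D, also called adipsin, a serine protease of the alternative complement pathway that fat releases into blood. Its counts were 75, 103 and 24 in exercised MKO, 68, 81 and 105 in exercised WT, 296, 54 and 175 in sedentary MKO and 104, 92 and 153 in sedentary WT libraries, in the replicate order just given. In CPM this was 4.83 ± 2.96 in exercised MKO, 6.18 ± 1.47 in exercised WT, 11.3 ± 8.08 in sedentary MKO and 7.95 ± 2.26 in sedentary WT muscle. The highest library, sedentary MKO replicate 1 with 19.7 CPM, and the lowest sedentary library, sedentary MKO replicate 2 with 3.61 CPM, came from the same group. Exercised MKO replicate 4 was the lowest of all with 1.72 CPM.

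Lep (ENSMUSG00000059201, chr6:29060220-29073877) encodes leptin, the hormone that reports fat stores to the brain. It had no counts in any of the 6 MKO libraries, exercised or sedentary. In WT muscle it had 0, 2 and 5 counts in the exercised and 0, 2 and 16 in the sedentary libraries, so that 1 library, sedentary WT replicate 4, held 16 of its 25 counts in the series. The difference between the genotypes within states was -1.18 on the log2 scale (prior count 2) with p = 0.08 in a two-sided exact permutation test over 400 arrangements, which cannot go below 0.005. With a prior count of 0.5 this difference was -2.21 (exact permutation p = 0.08), so its size depended on the prior count. At this depth a count of 0 allows up to 3 counts per library, more than all but 2 of the WT libraries held. No fold change from the fit is given. Between exercised and sedentary libraries within genotypes the difference was -0.20 (exact permutation p = 0.9).

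Retn (ENSMUSG00000012705, chr8:3655770-3660110) encodes resistin, which mouse adipocytes secrete. Its counts were 3, 0 and 0 in exercised MKO, 0, 10 and 10 in exercised WT, 17, 0 and 11 in sedentary MKO and 0, 0 and 19 in sedentary WT libraries. Resistin was therefore present at 10 counts or more in 5 of 12 libraries and at 0 in 6, and each group held at least 1 library at 0.

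The lipid droplet proteins came next. Cidec (ENSMUSG00000030278, chr6:113424634-113435760), whose product fuses small droplets into large ones, had 10, 22 and 0 counts in exercised MKO, 12, 18 and 38 in exercised WT, 28, 4 and 16 in sedentary MKO and 14, 6 and 34 in sedentary WT libraries. Its level was 0.772 ± 0.818 CPM in exercised MKO, 1.66 ± 1.02 in exercised WT, 1.03 ± 0.801 in sedentary MKO and 1.23 ± 0.992 in sedentary WT muscle. The libraries that were high or low in Adipoq were mostly so in Cidec, and exercised MKO replicate 4, the lowest in both, had no Cidec count. Plin1 (ENSMUSG00000030546, chr7:79720218-79732903) encodes perilipin 1, which coats the droplet and gates lipolysis. It had 4, 4 and 0 counts in exercised MKO, 0, 0 and 6 in exercised WT, 0, 0 and 6 in sedentary MKO and 0, 5 and 10 in sedentary WT libraries. It was thus at 0 in 6 of 12 libraries, and it failed the filter on low counts together with Lep. Plin1 differed by -0.22 on the log2 scale between MKO and WT within states (exact permutation p = 0.68) and by -0.15 between exercised and sedentary muscle within genotypes (exact permutation p = 0.775).

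**Figure D1:**
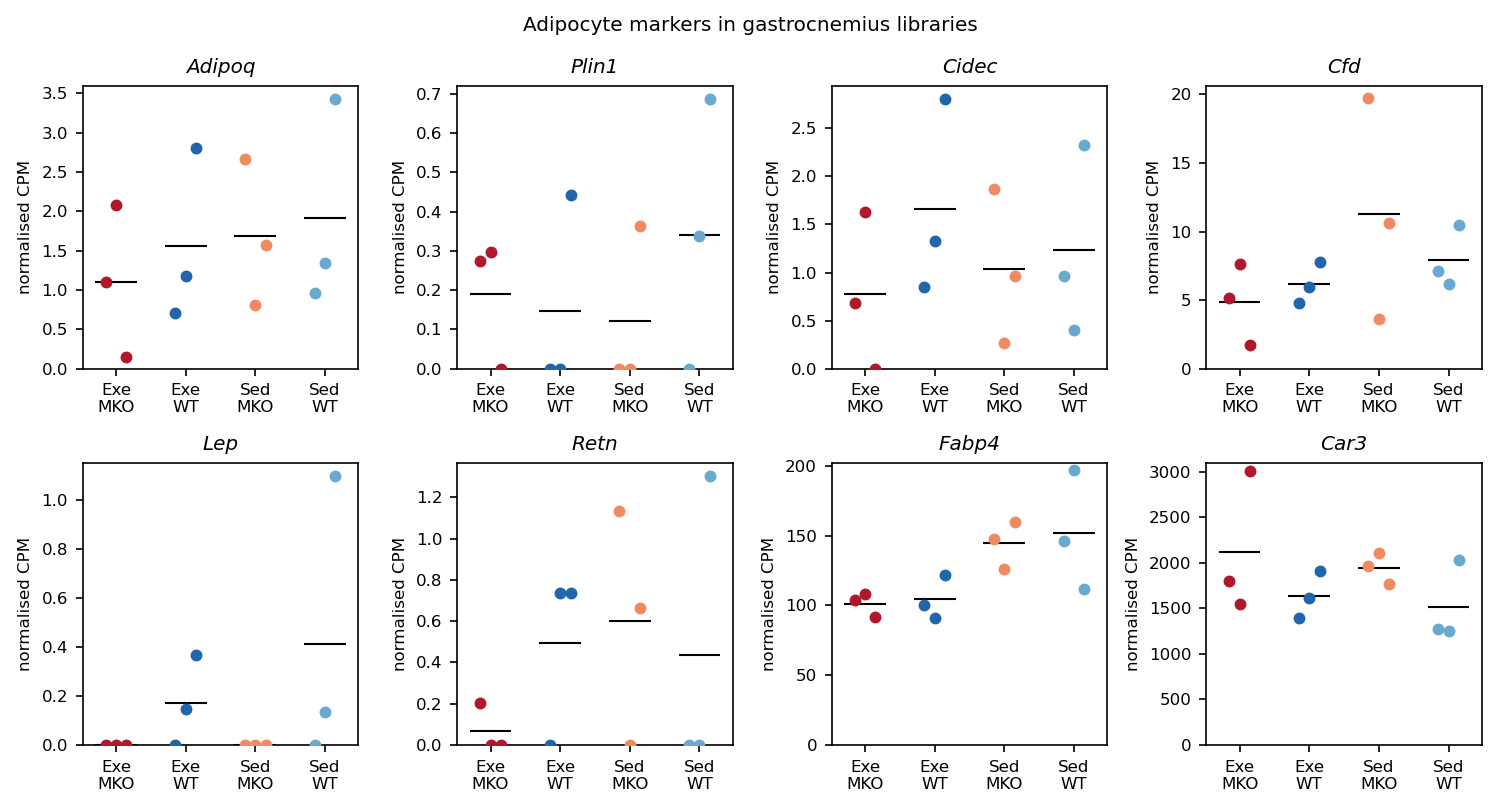
Normalised CPM of the 8 genes (vertical axes, linear, starting at 0) in each library of the exercised (Exe) and sedentary (Sed) MKO and WT groups. Points are libraries in replicate order and lines are group means. The Lep points of all 6 MKO libraries lie at 0, and the Fabp4 points of exercised MKO muscle (91.9 to 108.2) lie below those of sedentary MKO muscle (126.3 to 160.0).

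Fabp4 (ENSMUSG00000062515, chr3:10204088-10208576), a fatty acid chaperone of the cytosol, was far more abundant than the genes above. It had 1515, 1460 and 1279 counts in exercised MKO, 1421, 1235 and 1648 in exercised WT, 2211, 1889 and 2646 in sedentary MKO and 2122, 2922 and 1627 in sedentary WT libraries. Its level was 101.3 ± 8.4 CPM in exercised MKO, 104.5 ± 15.5 in exercised WT, 144.5 ± 17.1 in sedentary MKO and 151.5 ± 43.0 in sedentary WT muscle. The 3 exercised MKO libraries all lay below the 3 sedentary MKO libraries, which was so for 11.6% of the genes tested. In WT the groups overlapped, because exercised replicate 5 (121.5 CPM) was above sedentary replicate 4 (111.6 CPM).

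Car3 (ENSMUSG00000027559, chr3:14863512-14872523) encodes carbonic anhydrase 3, an enzyme of carbon dioxide hydration that is abundant in fat, liver and slow muscle fibres. Its counts were 26241, 20906 and 41892 in exercised MKO, 19743, 21758 and 25918 in exercised WT, 29513, 31487 and 29115 in sedentary MKO and 18527, 18499 and 29558 in sedentary WT libraries. It averaged 2119 ± 782 CPM in exercised MKO, 1639 ± 258 in exercised WT, 1944 ± 173 in sedentary MKO and 1516 ± 443 in sedentary WT muscle. Exercised MKO replicate 4, the library lowest in Adipoq, Cidec and Cfd, was the highest in Car3 with 3011 CPM.

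Per length of annotated exons, the members covered a wide span of abundance in this tissue. The median level over the 12 libraries was 621 CPM per kilobase for Car3, 26.0 for Fabp4, 7.24 for Cfd, 0.916 for Adipoq and 0.520 for Cidec. Among the 14402 fitted genes with an annotated length, Car3 ranked 66, Fabp4 1304, Cfd 3564, Adipoq 10011, Cidec 11581 and Retn 14273 by this median. The exons annotated for Fabp4 merge into 1 block of 4489 bases, which includes a transcript that keeps its introns, so its level per length may be a low estimate. No other annotated gene overlapped the exons of any member.

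The 6 genes other than Fabp4 and Car3 were then summed per library. The sum was lowest in exercised MKO replicate 4, with 26 counts (1.87 CPM), and highest in sedentary MKO replicate 1, with 381 counts (25.4 CPM), a 13.6-fold range. Within groups the highest library exceeded the lowest by 6.22-fold in exercised MKO, 2.34-fold in exercised WT, 5.43-fold in sedentary MKO and 2.30-fold in sedentary WT muscle. The group means were 6.97 ± 4.90 CPM in exercised MKO, 10.2 ± 4.32 in exercised WT, 14.7 ± 10.4 in sedentary MKO and 12.3 ± 6.13 in sedentary WT muscle. In each group the SD was large beside the mean, and Cfd made up most of the sum in every library.

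**Figure D2:**
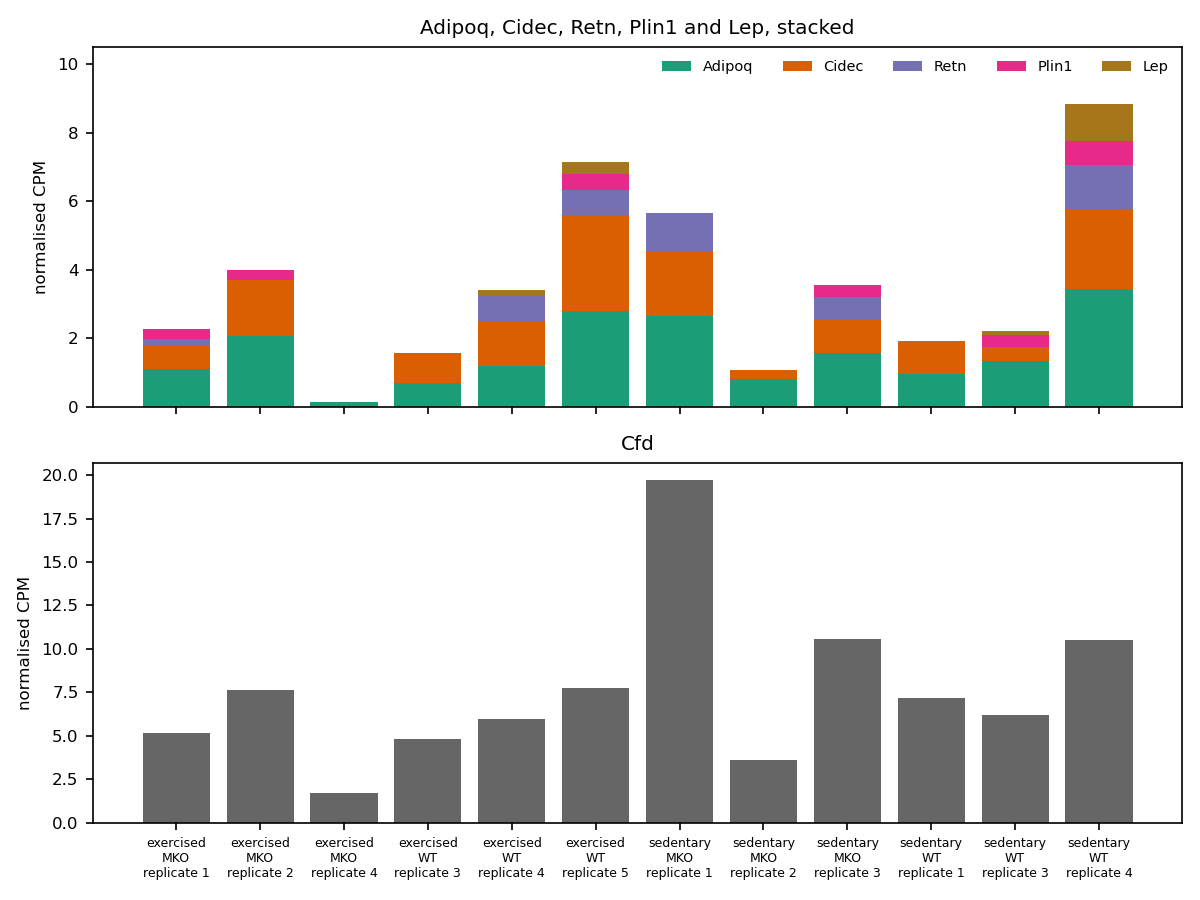
Normalised CPM per library (horizontal axis, 12 libraries by group and replicate) of Adipoq, Cidec, Retn, Plin1 and Lep stacked (top) and of Cfd (bottom). Each group holds a low and a high library; the lowest bar in both panels is exercised MKO replicate 4.

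The 3 most abundant of these transcripts followed each other across libraries. Adipoq and Cidec had r = 0.91 (Spearman rho = 0.87) in log2 CPM over the 12 libraries, and r = 0.76 without exercised MKO replicate 4 and sedentary WT replicate 4, the pair farthest from the median of Adipoq. Adipoq and Cfd had r = 0.88 (rho = 0.87), and 0.76 without the same pair. Cidec and Cfd had r = 0.83 (rho = 0.81), and 0.52 without exercised MKO replicate 4 and sedentary MKO replicate 2. After the group means were taken out, r was 0.94 for Adipoq with Cidec, 0.88 for Adipoq with Cfd and 0.93 for Cidec with Cfd. These are descriptions over 12 points that share a library, and so its depth and tissue piece, for each pair.

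Over all 12 libraries Fabp4 and Car3 did not follow this pattern. Adipoq had r = 0.34 (rho = 0.37) with Fabp4 and r = -0.29 (rho = 0.04) with Car3. Without exercised MKO replicate 4 the value for Car3 was 0.46, so its sign rested on 1 library, and the value for Fabp4 was 0.09. All fitted genes were ranked by Pearson r with Adipoq over the 12 libraries. Cidec was number 1, Cfd number 3 and Retn number 257, whereas Fabp4 was number 3049 and Car3 number 10986. The order of Fabp4 and Car3 in this ranking rested on exercised MKO replicate 4, since without it r was higher for Car3.

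The genes outside the set whose levels ran most like Adipoq over the 12 libraries were Ranbp10 (r = 0.90), Itga1 (0.87), Aatf (0.87), Abcb1a (0.87), Pck1 (0.85), Zfp738 (0.85), Fnbp1l (0.85) and Hp (0.85). Pck1 encodes the phosphoenolpyruvate carboxykinase that fat uses to make glycerol for triglyceride, and Hp encodes haptoglobin, a plasma protein. With Spearman rho in place of r, 2 of these 8 stayed among the top 8. For Fabp4 the most alike were Zscan22 (r = 0.94), Zfp799 (0.92), Phldb2 (0.92), Zfp770 (0.91) and Fam124a (0.90), and for Car3 they were Rasa4 (0.94), Myl4 (0.85), Pnpla3 (0.84), Sh3glb2 (0.82) and Csf2rb2 (0.82). In each of these lists 2 of 5 stayed with Spearman rho.

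**Figure D3:**
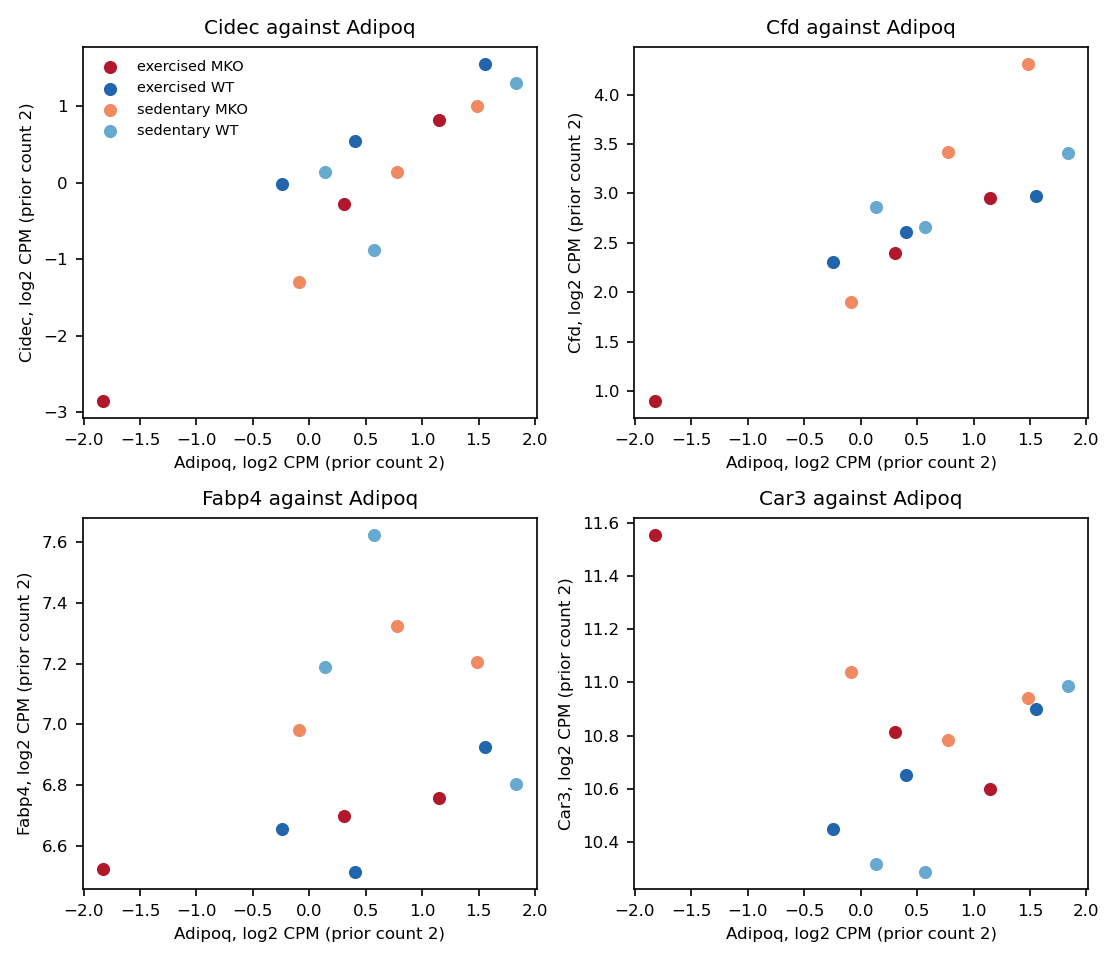
Log2 CPM (prior count 2) of Cidec, Cfd, Fabp4 and Car3 (vertical axes) against Adipoq (horizontal axes), 1 point per library, coloured by group. Cidec (r = 0.91) and Cfd (r = 0.88) rise with Adipoq over the 12 libraries, while Fabp4 (r = 0.34) and Car3 (r = -0.29) do not. Without exercised MKO replicate 4, r is 0.09 for Fabp4 and 0.46 for Car3.

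The comparison of MKO with WT muscle asks what the loss of cellular Feimin does after running and at rest. In exercised muscle none of the 6 members fitted passed at an adjusted p under 0.05 in edgeR, DESeq2 or limma-voom, against 0.0345% of all genes called in edgeR. None had an unadjusted p under 0.05 in edgeR, against 2319 of the 14486 genes. On the log2 scale Cidec differed by -1.10 ± 0.88 (adjusted p = 0.545), Adipoq by -0.50 ± 0.76 (0.769), Cfd -0.36 ± 0.57 (0.782), Retn -2.63 ± 1.89 (0.498), Fabp4 -0.04 ± 0.19 (0.926) and Car3 0.37 ± 0.25 (0.473). The value of Car3 was 0.022 without exercised MKO replicate 4. With each library left out, Cidec ranged from -2.23 to -0.50 and Retn from -5.84 to -2.12. Retn had 3, 0 and 0 counts in the exercised MKO libraries, so the size of its fold change is not reliable.

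In sedentary muscle again none of the 6 members passed in edgeR, against 0.0069% of all genes, and none had an unadjusted p under 0.05, against 545 of the 14486 genes; DESeq2 and limma-voom also called none. The log2 fold changes ± SE were -0.19 ± 0.68 for Adipoq, -0.25 ± 0.85 for Cidec, 0.51 ± 0.52 for Cfd, 0.47 ± 1.25 for Retn, -0.07 ± 0.18 for Fabp4 and 0.36 ± 0.25 for Car3 (adjusted p = 1 for each). The value of Cfd was -0.15 without sedentary MKO replicate 1. Averaged over the exercised and sedentary states, 0.0138% of all genes and none of the 6 members were called; Car3 had 0.36 ± 0.18 (adjusted p = 0.351). Car3 was the 1 member with an unadjusted p under 0.05 in DESeq2 in that average, as were 1680 of the 14486 genes. No member had one in edgeR, against 2245 of the 14486 genes.

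Exercise was compared with rest in each genotype to see what the run does. In MKO muscle 4.05% of all genes and none of the 6 members were called in edgeR; DESeq2 and limma-voom called no member either. Fabp4 had -0.51 ± 0.19 (adjusted p = 0.186) and Cfd -1.23 ± 0.55 (adjusted p = 0.318), and these were the 2 members with an unadjusted p under 0.05 in edgeR, as were 2189 of the 14486 genes. The value of Cfd was -0.56 without sedentary MKO replicate 1. Adipoq had -0.61 ± 0.74, Cidec -0.43 ± 0.92, Retn -2.93 ± 1.79 and Car3 0.12 ± 0.25. With each library left out, Adipoq ranged from -1.41 to -0.092 and Retn from -6.14 to -2.15. The Retn values again rest on exercised MKO libraries with 3, 0 and 0 counts.

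In WT muscle 8.24% of all genes and again none of the members were called by the 3 tools. Fabp4, with -0.54 ± 0.19 (adjusted p = 0.107), was the 1 member with an unadjusted p under 0.05, as were 3080 of the 14486 genes. Without sedentary WT replicate 4, Fabp4 passed with -0.70 (adjusted p = 0.0305), and without sedentary WT replicate 3 it had -0.30 (adjusted p = 0.389). The other WT values were -0.29 ± 0.70 for Adipoq, 0.42 ± 0.81 for Cidec, -0.36 ± 0.55 for Cfd, 0.17 ± 1.33 for Retn and 0.11 ± 0.25 for Car3. The MKO and WT responses have no libraries in common. The test of the difference between the responses called 0% of all genes (534 of 14486 had an unadjusted p under 0.05) and no member, with 0.983 as the smallest adjusted p among the members.

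Averaged over both genotypes, Fabp4 fell in exercised muscle by 0.52 ± 0.13 on the log2 scale (edgeR, adjusted p = 0.0192), and it was the 1 member called, against 13.6% of all genes. DESeq2 (adjusted p = 0.0019) and limma-voom (0.0223) called it as well. The call was lost without exercised WT replicate 3 (adjusted p = 0.051), without exercised WT replicate 4 (0.0532) and without the 3 libraries set apart earlier (0.0567), while the fold change stayed between -0.61 and -0.41 with each library left out. Cfd had -0.80 ± 0.39 (adjusted p = 0.227) in this average.

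**Figure D4:**
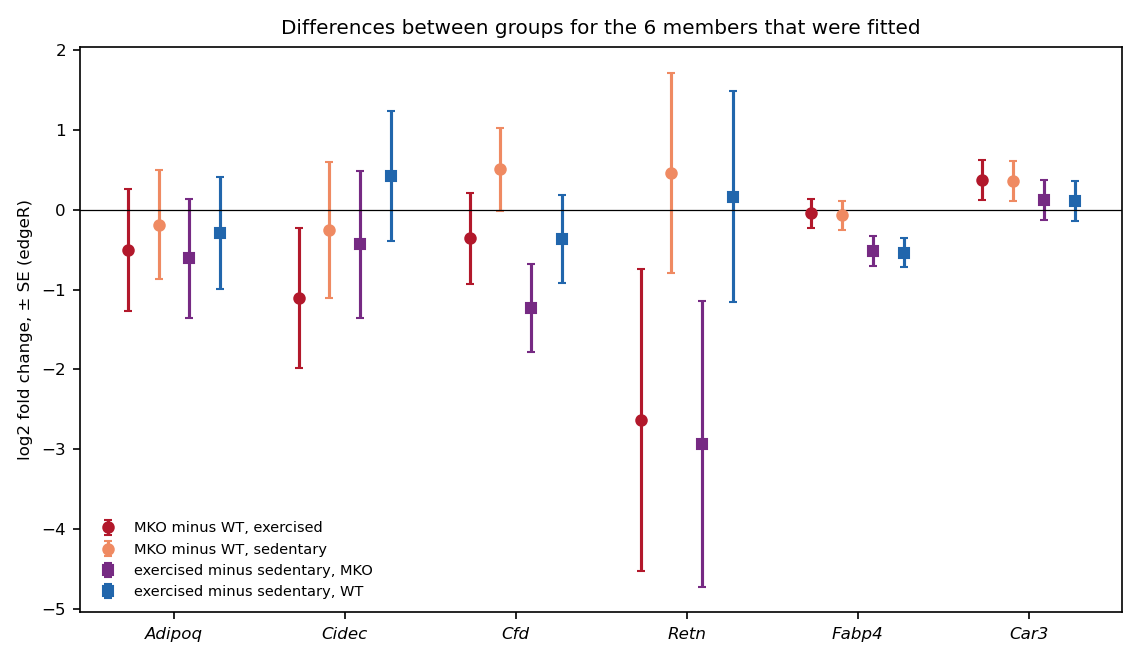
Log2 fold change ± SE from edgeR (vertical axis) of the 6 fitted genes (horizontal axis) for MKO minus WT in exercised and sedentary muscle and for exercised minus sedentary muscle in MKO and WT. Both exercise values of Fabp4 lie near -0.5 with short error bars, whereas those of Retn reach -2.93 with an SE of 1.79.

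The members differed in how precisely they were measured. The biological coefficient of variation, the spread between replicates beyond counting error, was 15.3% over all genes. For single members it was 157.1% for Retn, 76.0% for Cidec, 60.5% for Adipoq, 45.8% for Cfd, 22.1% for Car3 and 16.9% for Fabp4. Of all fitted genes 98.1% had a lower value than Adipoq, 98.8% a lower one than Cidec and 96.9% a lower one than Cfd, against 78.8% for Fabp4 and 88.0% for Car3.

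Fabp4 was set beside the other cell types that express it. The summed level of 12 endothelial genes (Pecam1, Cdh5, Kdr, Tek, Tie1, Emcn, Flt1, Egfl7, Cldn5, Eng, Esam and Vwf) was 307.9 ± 49.9 CPM in exercised MKO, 360.7 ± 27.9 in exercised WT, 339.5 ± 50.7 in sedentary MKO and 345.7 ± 40.5 in sedentary WT muscle, and the groups overlapped. The ratio of Fabp4 to this sum was 0.332 ± 0.029 in exercised MKO, 0.289 ± 0.021 in exercised WT, 0.435 ± 0.106 in sedentary MKO and 0.436 ± 0.096 in sedentary WT muscle. Averaged over genotypes, where 13.6% of all genes were called, 10 of the 12 endothelial genes were called after exercise. Of these, 4 rose, among them Cldn5 (a tight junction protein, 1.28 ± 0.15) and Esam (an adhesion molecule, 0.48 ± 0.10), and 6 fell, among them Tek (the angiopoietin receptor, -0.99 ± 0.13) and Vwf (von Willebrand factor, -0.60 ± 0.13). The median of the list was -0.21 on the log2 scale, against 0.00 over all genes. Because the sum mixes genes that rose with genes that fell, the ratio does not give Fabp4 per endothelial cell.

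Marker genes of some other cell types were called in the same average as Fabp4, where 13.6% of all genes were called in either direction. Of 8 Schwann cell genes none was called, and 7 had a positive value (median of the list 0.17). None of 8 muscle-defining genes was called. Of 10 genes of fibro-adipogenic progenitors 8 fell and none rose (median -0.70), among them Pdgfra (-1.42 ± 0.09), which marks these cells, Smoc2 (-0.96 ± 0.09), Cd34 (-0.66 ± 0.06) and Dcn (-0.74 ± 0.09). Their sum was 334.1 to 381.7 CPM in exercised MKO, 300.4 to 340.6 in exercised WT, 507.7 to 607.0 in sedentary MKO and 514.4 to 572.5 in sedentary WT libraries. Of 10 macrophage genes 4 fell (Cd163, C1qc, Csf1r and C1qa) and none rose, with sums of 65.7 to 162.1 CPM in exercised MKO, 50.3 to 62.4 in exercised WT, 123.7 to 171.3 in sedentary MKO and 77.3 to 113.0 in sedentary WT libraries. All 10 macrophage genes had a positive log2 value for MKO minus WT in exercised (median 1.17) and in sedentary muscle (median 0.62), and none passed. Of 6 red blood cell genes 4 globin genes fell, which are near-identical copies in pairs and may share reads. No gene of these lists was at 0 in every library. Their part in the value of Fabp4 was not tested.

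**Figure D5:**
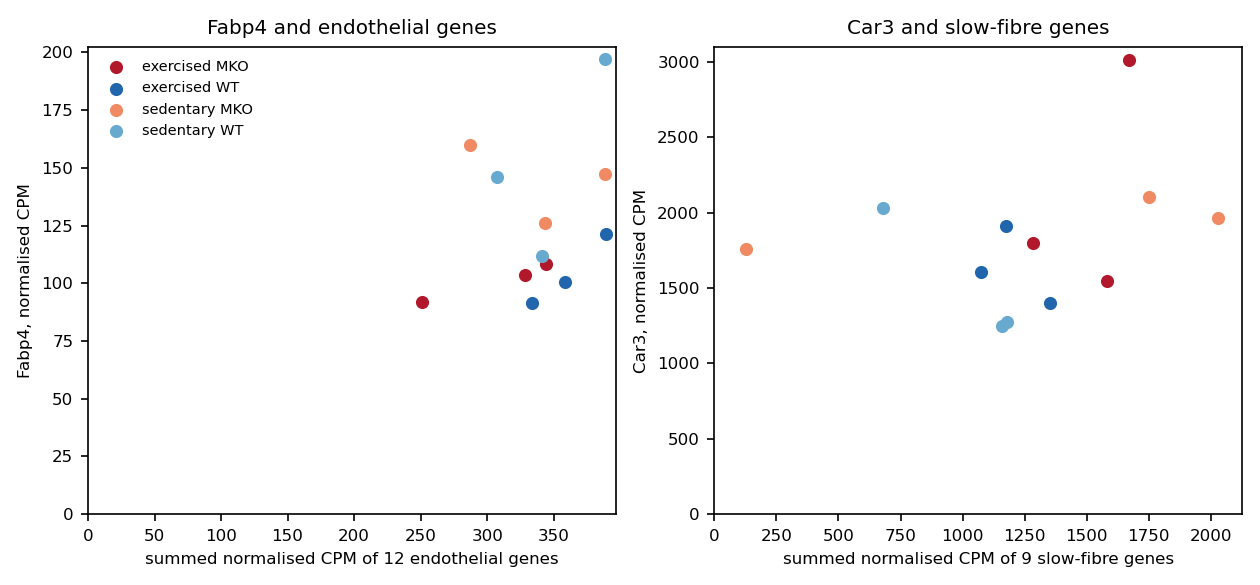
Fabp4 against the summed level of 12 endothelial genes (left) and Car3 against the summed level of 9 slow-fibre genes (right), all in normalised CPM, 1 point per library, coloured by group. Exercised libraries reach at most 121.5 CPM of Fabp4 and sedentary libraries as little as 111.6 and as much as 197.0 CPM; sedentary MKO replicate 3 has a slow-fibre sum of 129.3 CPM with 1761 CPM of Car3.

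Car3 was set beside genes of slow muscle fibres, where carbonic anhydrase 3 is known to be abundant. The summed level of 9 such genes (Myh7, Myl2, Myl3, Tnnt1, Tnni1, Tnnc1, Tpm3, Atp2a2 and Myoz2) was 1512 ± 201 CPM in exercised MKO, 1201 ± 141 in exercised WT, 1304 ± 1027 in sedentary MKO and 1005 ± 283 in sedentary WT muscle. Sedentary MKO replicate 3 had 129.3 CPM of these genes, against 678.3 to 2030 in the other 11 libraries, and 1761 CPM of Car3, which is within the range of the others. Neither the slow-fibre nor the fast-fibre list had a gene that passed in any comparison.

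The rest of the carbonic anhydrase family was read for comparison with Car3. Of 13 further members 7 were fitted, and together the 13 summed to 46.9 to 66.6 CPM per library, far below Car3. After exercise none of the 7 passed in MKO muscle, where 4.05% of all genes were called in either direction. In WT muscle 3 fell, where 8.24% of all genes were called. The 3 calls in WT do not show that the genotypes differ, since no gene passed the test of that difference. In WT these were Car4, the membrane form on capillaries (-0.67 ± 0.16, adjusted p = 0.0259), Car7 (-0.84 ± 0.22, adjusted p = 0.0353) and Car13 (-1.70 ± 0.44, adjusted p = 0.033).

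Of a wider list of 17 genes chosen as adipocyte markers, 8 never reached 10 counts in a library and 9 were fitted. Not all of the list is restricted to fat cells, and the cells that held these transcripts were not told apart. Plin4, a perilipin that muscle fibres also make, held most of the summed level, with 260.3 ± 23.3 CPM in exercised MKO, 338.0 ± 89.3 in exercised WT, 217.4 ± 14.2 in sedentary MKO and 246.9 ± 32.7 in sedentary WT muscle. After exercise 1 of the 9 fell in MKO and 2 in WT muscle, and none rose, where 4.05% of all genes in MKO and 8.24% in WT were called in either direction. They were Trarg1, a partner of the glucose transporter of fat (-1.30 ± 0.32 in MKO, adjusted p = 0.0467; -1.93 ± 0.34 in WT, adjusted p = 0.00428), and Aqp7, the glycerol channel (-1.59 ± 0.23 in WT, adjusted p = 0.00116). In MKO muscle Aqp7 had -0.75 ± 0.21 (edgeR adjusted p = 0.0845), and its call in WT alone does not show that the genotypes differ. The median of the 9 was -0.30 in MKO and -0.40 in WT on the log2 scale, against 0.00 in MKO and -0.01 in WT over all genes.

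Single genes among the regulators and enzymes of fat storage were called after exercise. The share of all genes called, in either direction, was 4.05% in MKO, 8.24% in WT and 13.6% in the average over genotypes. The next list held 9 genes of transcription factors that act in adipocytes, and the cells that held these transcripts were not told apart. Cebpb, for example, had 31.4 to 160.3 CPM, where Adipoq had 0.144 to 3.43. Ebf2 fell in MKO (-1.74 ± 0.42) and in WT muscle (-1.47 ± 0.41), Ebf1 fell in WT (-0.97 ± 0.20), and none rose in either. In MKO muscle Ebf1 had -0.58 ± 0.20 (edgeR adjusted p = 0.150). In the average over genotypes Cebpb, an early factor of adipocyte differentiation, rose (1.13 ± 0.31, adjusted p = 0.0318), as 1 of 3 of these genes called; Pparg and Cebpa, which drive adipocyte differentiation, were fitted and did not pass. Of 11 genes of lipid droplets and lipolysis, Cidea, a relative of Cidec, rose in MKO (2.50 ± 0.49, adjusted p = 0.0135) and in WT muscle (2.21 ± 0.46, adjusted p = 0.0103). Its level was 4.34 ± 2.24 CPM in exercised MKO and 5.07 ± 0.617 in exercised WT, against 0.770 ± 0.468 in sedentary MKO and 1.09 ± 0.467 in sedentary WT muscle. Lipe, which encodes hormone-sensitive lipase, fell in MKO (-0.52 ± 0.12) and in WT muscle (-0.93 ± 0.12), and Fitm2 fell in WT (-0.53 ± 0.14). In MKO muscle Fitm2 had -0.28 ± 0.14 (edgeR adjusted p = 0.386). The calls of Ebf1 and Fitm2 in WT alone do not show that the genotypes differ. Cidec itself gave no call after exercise, as described above, and the difference between Cidea and Cidec was not tested.

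In the average over genotypes, Fasn (fatty acid synthase, 0.59 ± 0.16) and Dgat1 (0.31 ± 0.09) rose and Gpam (-0.82 ± 0.20) fell among 14 lipogenic genes, none of which was called within MKO or within WT. Cd36, the fatty acid transporter, fell by 0.61 ± 0.18 in that average, as 1 of 6 genes of fatty acid binding and uptake. Over all genes 13.6% were called in that average, in either direction. Of 9 genes of brown and beige fat Dio2, which activates thyroid hormone, rose in MKO (1.37 ± 0.32) and in WT muscle (1.69 ± 0.31), and 6 were fitted. Within MKO 4.05% and within WT 8.24% of all genes were called after exercise, in either direction. Ucp1, the uncoupling protein that defines brown fat, had no count in any library. Of 7 further genes of the alternative complement pathway, in which factor D acts, 5 were fitted. Of these C3, the central component, fell in MKO muscle (-0.98 ± 0.23, edgeR adjusted p = 0.0377). In WT muscle C3 had -0.54 ± 0.23 (edgeR adjusted p = 0.205), and in the average over genotypes it fell by 0.76 ± 0.16 (edgeR adjusted p = 0.00898). The call of C3 in MKO and not in WT does not show that the genotypes differ. Of 4 receptors for adiponectin and leptin 3 were fitted and none passed. Between MKO and WT, in exercised muscle, in sedentary muscle and in the average, no gene of any of these lists passed, nor of the lists of Schwann cells and of muscle-defining genes.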

How the data were processed

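The values were raw counts per Ensembl gene of 12 libraries, as deposited by the authors. Builds GRCm38.p6 and mm10 and the tools HISAT2 2.2.1, StringTie 2.1.4 and DESeq2 1.40.2 appear in the submitters' processing notes; no source used here gives the counting step or its use of strand. Symbols and exons came from the GENCODE annotation of GRCm38.p6 (42462 of 43432 identifiers matched), promoters from RefSeq.

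All libraries entered 1 quasi-likelihood model in edgeR 4.0.16 (R 4.3.3) with 1 mean per group, after filterByExpr (minimum count 10, minimum total 15) and TMM scaling (0.928 to 1.15), with 8 residual degrees of freedom and Benjamini-Hochberg adjustment over 14486 genes at 0.05. Plin1 and Lep, which failed the filter, had exact permutation tests within strata. Alternatives were DESeq2 1.42.0, limma-voom (limma 3.58.1), other scalings and filters, only the compared groups, a replicate block and libraries left out. Members, lists, rules and tests were chosen with earlier results of these data known. Named genes were the members, up to 4 list genes a comparison by p, and the most alike by Pearson r (8 for Adipoq, 5 each for Fabp4 and Car3); Plin4, Pparg, Cebpa and Ucp1 were named after their values were seen. No 2 replicates were duplicates.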

Additional observations from a re-analysis of the deposited data

How the results depend on the processing

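Of 27 member fold changes 12 kept their sign under all 22 other settings, and 43 of 584 values had the other sign. The number of members called by edgeR for exercised minus sedentary muscle over both genotypes was 0 to 1 with each library left out and 0 without the 3 libraries set apart earlier; in WT it was 0 to 1. With each library left out, sedentary MKO minus WT ranged from -0.67 to 0.54 for Adipoq, -0.96 to 0.60 for Cidec, -0.15 to 0.93 for Cfd, -0.32 to 6.14 for Retn and -0.24 to 0.17 for Fabp4. Exercised MKO minus WT ranged from -1.31 to 0.22 for Adipoq, -0.85 to 0.037 for Cfd and -0.14 to 0.076 for Fabp4. Exercised minus sedentary WT ranged from -1.01 to 0.44 for Adipoq, -0.18 to 1.28 for Cidec, -0.41 to 5.85 for Retn and -0.012 to 0.39 for Car3, and exercised minus sedentary MKO from -1.54 to 0.28 for Cidec and -0.22 to 0.31 for Car3. With total counts alone, Fabp4 had 0.020 in sedentary MKO minus WT and Car3 -0.019 in exercised minus sedentary MKO. Without the 3 libraries, exercised MKO minus WT was 0.74 for Adipoq, 0.076 for Cidec, 0.24 for Cfd and 0.14 for Fabp4, exercised minus sedentary WT was -0.18 for Cidec, -0.25 for Retn and -0.012 for Car3, and exercised minus sedentary MKO was 0.10 for Cidec and -0.28 for Car3. The replicate block gave 0.068 for Adipoq and 0.17 for Fabp4 in exercised MKO minus WT, -0.57 for Retn and -0.068 for Car3 in exercised minus sedentary WT, and -0.13 for Car3 in exercised minus sedentary MKO. It changed no call of a member. Same-numbered libraries did not deviate together (r from -0.15 to 0.076 over 10 pairs), so the numbers were not taken as pairs. The cause of these shifts was not tested. Over all genes, calls lay between 0 and 3 for sedentary MKO minus WT, 2 and 108 for exercised MKO minus WT, 602 and 1332 for exercised minus sedentary WT, 316 and 855 for the same in MKO, 0 and 4 for the difference of responses, 2 and 163 for the averaged genotype and 1371 and 2713 for the averaged exercise comparison. Members with few counts limit what can be seen: Plin1, Lep and Retn had 0 counts in 6 or more libraries.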

Other observations

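The counts of Adipoq were even numbers in 12 of 12 libraries, and those of Cidec in 11 of the 11 libraries with a count. Cfd had even counts in 6 of 12 libraries, and Fabp4 and Car3 in 5 of 12 each. Over all genes, 41.6% of counts from 1 to 10, 51.5% of counts from 11 to 50 and 50.4% of counts from 51 to 1000 were even.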
